A study of Mus musculus with 4 samples.

Results

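Rab genes encode a family of small GTPases, and 58 of the 21755 protein-coding genes on mouse chromosomes 1 to 19 and X were taken as the family here. They were chosen by name alone, as gene names made of Rab, a number and at most a letter and a digit, so no measured value entered the choice. Chromatin accessibility at these genes was measured in natural killer (NK) cells by DNase-seq. In this assay the nuclease DNase I cuts exposed DNA, so that a peak of cuts marks accessible chromatin and a short protected stretch inside a peak, called a footprint, marks bases shielded from the enzyme.

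All 4 libraries came from primary NK cells of virgin female B6CASTF1/J mice aged 2 months. This strain is an F1 cross of C57BL/6J and CAST mice, so each cell carries a CAST allele that the reference sequence does not show. The libraries are labelled biological replicates 1 to 4 of a single group with no treatment, so no condition was set against another, and the family is described beside all protein-coding genes. The 4 biosamples share a donor identifier, and the labels give neither the tissue nor the sort, so the SD over libraries may be partly technical.

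Rab proteins switch between a GTP-bound form, which sits on a membrane and recruits effectors, and a GDP-bound form, which is held in the cytosol. Exchange factors turn them on, GTPase-activating proteins turn them off, and each Rab marks certain membranes, such as early endosomes, the Golgi or secretory granules. NK cells kill by releasing lytic granules, which are lysosome-related organelles, and Rab proteins act in the maturation, transport and docking of such granules and in the recycling of surface receptors.

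A promoter was the stretch within 1 kb of the annotated 5' end of a gene. Peaks that touched or overlapped between libraries were joined into a region. A promoter region was called recurrent when peaks of at least 3 of the 4 libraries were joined in it. The promoter signal is the authors' own value of the strongest peak in that stretch, set to 0 without a peak. How this value was scaled from library to library is unstated in the files. In a population of cells, a larger share of cells with an open site and wider opening in each cell cannot be told apart.

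The libraries held 44113, 47496, 69168 and 36285 peaks in replicates 1 to 4. Read depth is not given in the files. Of the NK cell markers checked, 5 of 10 had a recurrent promoter region, namely Ncr1, Eomes, Prf1, Nkg7 and the interleukin-2 receptor gene Il2rb. The summed promoter signal of all 10 was 19.6, 21.4, 54.3 and 19.4 in replicates 1 to 4. Cd3e, Cd3d, Cd8a and Cd4 of the T cell list and Csf1r, Lyz2, Cd14, Adgre1 and Mpo of the myeloid list had no promoter peak in any library. A recurrent region was present at 1 of 6 T cell markers, 4 of 5 B cell markers and 1 of 6 myeloid markers, and the summed B cell signal was 3.56, 7.42, 1.73 and 5.43. Replicate 3 thus had the highest NK sum and the lowest B cell sum.

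Reference sequences of the strand on which the gene lies (GRCm38.p6, strain C57BL/6J) show what the accessible members look like at base level. The 120 bases before the annotated 5' end are given 5' to 3' for 6 of the 10 members with the highest promoter signal. Capitals mark bases inside footprints found in all 4 libraries. Footprints that overlapped between libraries were joined, so a capital base need not be protected in every library.
Rab1a (chr11:20201312-20201431, plus strand): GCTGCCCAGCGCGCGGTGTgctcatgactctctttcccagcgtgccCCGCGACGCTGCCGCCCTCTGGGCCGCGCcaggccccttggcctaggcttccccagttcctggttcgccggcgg
Rab8a (chr8:72161080-72161199, plus strand): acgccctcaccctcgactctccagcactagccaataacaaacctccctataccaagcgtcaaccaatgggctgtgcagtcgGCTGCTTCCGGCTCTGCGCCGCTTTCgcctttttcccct
Rab11b (chr17:33760531-33760650, minus strand): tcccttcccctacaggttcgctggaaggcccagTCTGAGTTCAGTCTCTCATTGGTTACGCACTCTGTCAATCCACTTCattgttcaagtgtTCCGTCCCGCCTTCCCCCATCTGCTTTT
Rab14 (chr2:35201121-35201240, minus strand): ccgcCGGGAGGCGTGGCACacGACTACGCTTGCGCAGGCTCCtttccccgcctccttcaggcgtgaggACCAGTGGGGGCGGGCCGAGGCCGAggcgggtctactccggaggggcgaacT
Rab10 (chr12:3309970-3310089, minus strand): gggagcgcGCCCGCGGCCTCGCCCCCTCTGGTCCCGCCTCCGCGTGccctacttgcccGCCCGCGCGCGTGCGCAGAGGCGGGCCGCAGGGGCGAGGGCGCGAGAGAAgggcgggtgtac
Rab5a (chr17:53479114-53479233, plus strand): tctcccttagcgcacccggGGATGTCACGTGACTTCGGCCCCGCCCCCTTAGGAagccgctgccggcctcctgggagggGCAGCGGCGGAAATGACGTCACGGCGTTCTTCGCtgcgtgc

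Footprints of all 4 libraries, joined in this way, covered 48 of these 120 bases at Rab1a, 26 at Rab8a and 74 at Rab11b. They covered 62 at Rab14, 88 at Rab10 and 69 at Rab5a. The stretches are rich in CG dinucleotides at Rab10, with 20, and at Rab14 and Rab5a, with 14 each, whereas Rab11b holds 4. The ETS consensus CCGGAAG, a letter string bound by the ETS family, stands in the Rab8a footprint on the opposite strand as CTTCCGG. For contrast, the same stretch is shown for 2 members with no promoter peak in any library, Rab3c and Rab9b, which were picked after their values were seen and hold no capitals because no such footprint was found.
Rab3c (chr13:110280997-110281116, minus strand): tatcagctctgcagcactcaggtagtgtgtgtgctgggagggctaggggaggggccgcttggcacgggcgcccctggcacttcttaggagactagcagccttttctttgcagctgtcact
Rab9b (chrX:136868756-136868875, minus strand): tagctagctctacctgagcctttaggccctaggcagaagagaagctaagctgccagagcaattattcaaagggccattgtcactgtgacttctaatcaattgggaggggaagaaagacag

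Most Rab genes had open promoters in these NK cell libraries. The promoter was recurrently accessible at 42 of 58 members (72.4%), against 50.3% of all protein-coding genes. No library had a promoter peak at 8 members (13.8%), against 43.4% of all genes. That number was 14 without replicate 3 and 16 with the authors' shorter peak list. At 17 members (29.3%) the promoter signal lay among the highest 10% of all genes, those above 9.07. The median over members of the mean signal was 3.74, with a range from 0 to 18.8, against a median of 0.407 over all genes. These shares describe the family in these libraries and carry no test. The recurrent B cell markers had mean signals from 0.530 to 1.75, and several weak recurrent members lay in that range. Which cells gave the weak regions was not tested.

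**Figure D1:**
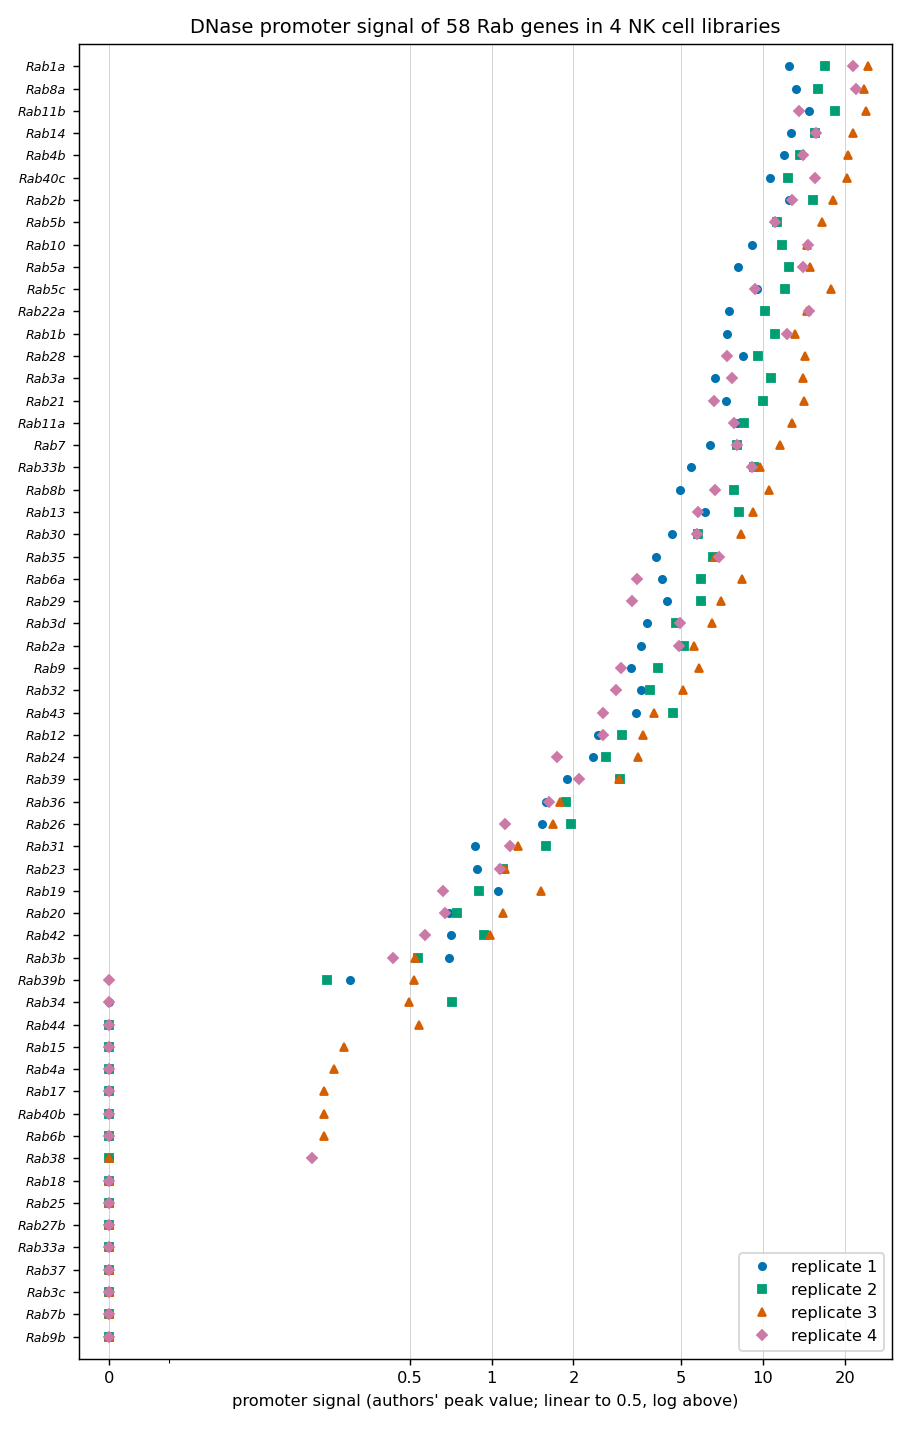
Promoter signal (authors' peak value, horizontal axis, linear up to 0.5 and logarithmic above) of the 58 Rab genes in rows, with 1 point per library. Rab1a, Rab8a and Rab11b lie at the top with means from 17.7 to 18.8, and 8 genes have all 4 points at 0.

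The strongest promoter of the family was that of Rab1a, whose product carries vesicles from the endoplasmic reticulum (ER) to the Golgi, with signals of 12.4, 16.9, 24.5 and 21.5 in replicates 1 to 4 (mean 18.8 ± 5.27, SD, n = 4). Its region, chr11:20201001-20201360, lay wholly upstream of the 5' end. Rab8a, which acts in transport to the plasma membrane, had 13.2, 16.01, 23.6 and 22.0 (mean 18.7 ± 4.92, SD, n = 4) at chr8:72160781-72161340. Their means differed by less than the SD over libraries, and both exceeded the promoter signal of 99.5% of genes.

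Rab11b, a GTPase of recycling endosomes, had 14.8, 18.5, 24.0 and 13.6 in replicates 1 to 4 (mean 17.7 ± 4.66, SD, n = 4) at chr17:33760321-33760640. Rab14, which acts between Golgi and endosomes, followed with 12.7, 15.6, 21.4 and 15.6 (mean 16.3 ± 3.65, SD, n = 4). Rab4b, of the fast recycling route, had 11.99, 13.7, 20.5 and 14.01 (mean 15.04 ± 3.75, SD, n = 4). All of these were open in every library and highest in replicate 3.

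Next in order came Rab40c, whose product joins a ubiquitin ligase through its SOCS box, with 10.6, 12.3, 20.3 and 15.5 (mean 14.7 ± 4.28, SD, n = 4). Rab2b, which acts between ER and Golgi, had 12.5, 15.3, 18.1 and 12.7 (mean 14.7 ± 2.61, SD, n = 4). Rab10, which brings vesicles to the cell surface, had 9.10, 11.7, 14.5 and 14.6 (mean 12.5 ± 2.62, SD, n = 4). The means of neighbours in this order from Rab1a to Rab10 differed by less than the SD of either over libraries. That SD also holds any shift of a whole library, which all members share. Differences within libraries were not computed for these neighbours, so the SD does not show that they cannot be ordered.

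The 3 Rab5 genes had nearly equal promoters. Their products fuse endocytic vesicles with early endosomes. Rab5b had 11.2, 11.2, 16.4 and 11.1 in replicates 1 to 4 (mean 12.5 ± 2.63, SD, n = 4). Rab5a had 8.10, 12.5, 14.96 and 14.1 (mean 12.4 ± 3.05, SD, n = 4). Rab5c had 9.52, 12.1, 17.9 and 9.30 (mean 12.2 ± 3.98, SD, n = 4). The ranges of the 3 genes overlapped, and each led another in 2 of 4 libraries, with ratios of their means between 1.01 and 1.02.

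Ordered by the membranes on which they act, the early endosome and endocytosis genes were all open. All 7 had a recurrent promoter region, with a median signal of 11.7, though Rab20 was not recurrent with the authors' shorter peak list. Beside the Rab5 genes these were Rab22a (11.7 ± 3.55, SD, n = 4), which sorts cargo from early endosomes, Rab21 (9.50 ± 3.41), which takes up integrins, Rab31 (1.22 ± 0.297), which links the Golgi to endosomes, and Rab20 (0.802 ± 0.199), known from phagosomes of macrophages. The group thus falls into 5 strong promoters and 2 weak ones.

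Of the recycling genes, 5 of 9 were recurrent, with a median of 6.02. Rab11a had 9.28 ± 2.38 and Rab35, which returns cargo quickly to the plasma membrane, 6.02 ± 1.33 (SD, n = 4 each). Rab4a, Rab15 and Rab17 had a peak in replicate 3 alone, with signals of 0.374, 0.390 and 0.357. Rab25, an epithelial relative of Rab11, had no promoter peak in any library. Rab15 is known mainly from neurons and Rab17 from epithelia.

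Among the genes of late endosomes, lysosomes and autophagy, 5 of 7 were recurrent, with a median of 2.91. Rab7, the main Rab of late endosomes and lysosomes, had 6.39, 8.005, 11.5 and 7.99 in replicates 1 to 4 (mean 8.47 ± 2.16, SD, n = 4). Rab33b, which binds the autophagy protein Atg16l1, had 8.37 ± 1.99, Rab9, which returns receptors from late endosomes to the Golgi, 4.03 ± 1.26, Rab12 2.91 ± 0.516 and Rab24 2.55 ± 0.715 (SD, n = 4 each). Rab7b and Rab9b, the relatives of Rab7 and Rab9, had no promoter peak.

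The ER and Golgi genes were the largest group, with 11 of 15 recurrent and a median of 2.47. Below Rab1a and Rab2b stood Rab1b (11.0 ± 2.54), Rab30 (6.10 ± 1.56), Rab6a (5.50 ± 2.18), which carries cargo back from the Golgi, Rab2a (4.78 ± 0.869) and Rab43 (3.64 ± 0.878; SD, n = 4 each). Rab39 (2.47), Rab36 (1.72), Rab19 (1.03) and Rab39b (0.319) were recurrent at lower mean signals. Rab34 and Rab6b were not recurrent, and Rab18 and Rab33a had no peak at the annotated 5' end.

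Of the secretion and exocytosis genes, 8 of 11 were recurrent, with a median of 4.98. After Rab8a and Rab10 came Rab3a (9.76 ± 3.32), the synaptic vesicle Rab of neurons, Rab8b (7.48 ± 2.34), Rab13 (7.32 ± 1.65), known from tight junctions, and Rab3d (4.98 ± 1.12), known from granules of exocrine cells (SD, n = 4 each). Rab26 (1.57 ± 0.350) and Rab3b (0.555 ± 0.0960) were weak. Rab27b and Rab37, which act in granule secretion, and the neuronal Rab3c had no peak at the annotated 5' end.

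Small groups completed the family. Of the 3 genes of lysosome-related organelles, Rab29 (5.16 ± 1.64) and Rab32 (3.83 ± 0.920) were recurrent, whereas Rab38, which acts with Rab32 in pigment granules, had a peak of 0.336 in replicate 4 alone. Both cilium genes, Rab28 (9.93 ± 3.06) and Rab23 (1.04 ± 0.110), were recurrent. Of the SOCS box genes Rab40c was recurrent and Rab40b was not. Rab42 (0.799 ± 0.198) was recurrent and the large protein gene Rab44 was not (SD, n = 4 for each value).

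**Figure D2:**
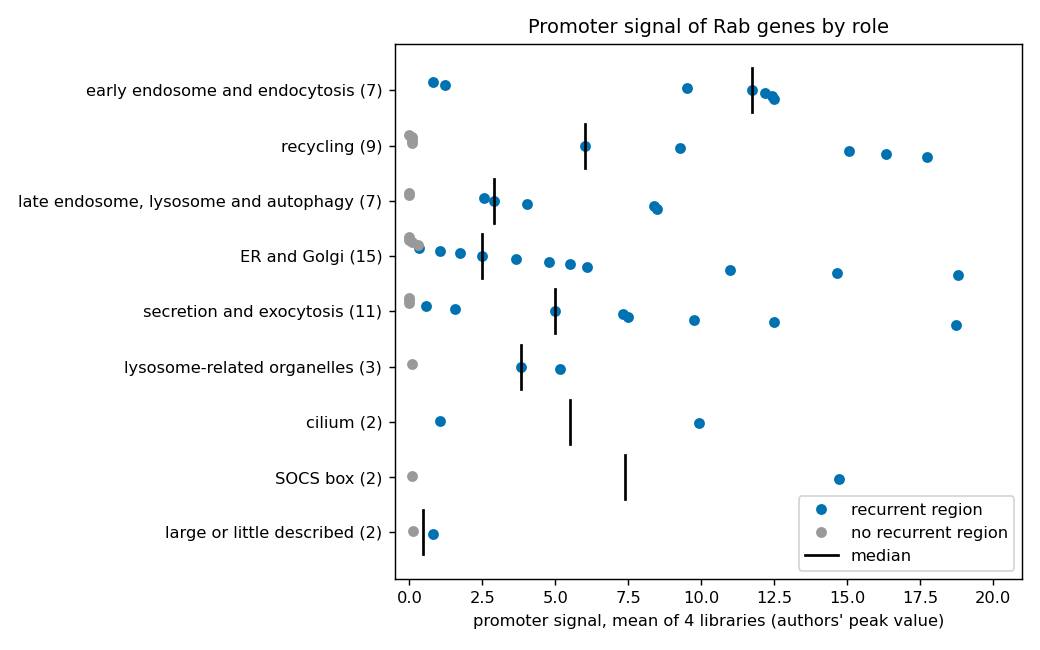
Mean promoter signal over 4 libraries (authors' peak value, horizontal axis) of each Rab gene, in rows by role with the number of genes in brackets, blue for recurrent and grey for not recurrent regions, with a black bar at the median. With the longer peak list the early endosome row has no grey point, and it has the highest median of the groups of 7 or more genes, 11.7.

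Some members sat at the limit of the recurrence rule. Rab39b had 0.3995, 0.362, 0.515 and 0 in replicates 1 to 4, with a recurrent region in 3 libraries. Rab3b had 0.693, 0.534, 0.523 and 0.471, and its region was called in 3 libraries although each library had a peak within 1 kb. Rab34 had 0, 0.715, 0.498 and 0 and, with 2 libraries, was not recurrent. Their signals overlapped, so the rule separates them by a single library. Rab20 and Rab39b were not recurrent with the shorter peak list, nor Rab3b and Rab39b with equal numbers of peaks per library, and Rab34 became recurrent without replicate 1 or 4, where 2 of 3 libraries sufficed.

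Of the 7 members with a peak in a single library, 6 had it in replicate 3, the library with the most peaks. These were Rab44 (0.540), Rab15 (0.390), Rab4a (0.374), Rab17, Rab40b and Rab6b (0.357 each). Across the 41 members with a peak in all 4 libraries, replicate 3 was the highest for 32, replicate 1 the lowest for 23 and replicate 4 the lowest for 18. The ratio of replicate 3 to the mean of the other libraries had a median of 1.44 over these members, from 0.925 at Rab3b to 1.85 at Rab6a. Replicate 3 was thus the highest library at most of these members, whereas the lowest was divided between replicates 1 and 4. The part played by the peak number or the marker sums of replicate 3 was not tested.

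Accessible regions lay close to the 5' ends. Of the 42 recurrent regions, 38 spanned the 5' end, and they were 310 bp wide in the median, from 200 to 880 bp. The region of Rab40c was the widest, chr17:25919721-25920600. At Rab9 and Rab26 the region lay in a UTR and at Rab43 in an intron, each within the first 1 kb of the gene. The regions of Rab2b, Rab13 and Rab6a also reached to within 1 kb of a neighbouring gene's start, Tox4, Rps27 and Mrpl48 in that order, so their signal cannot be assigned to either gene.

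The deposited lists of false discovery rates held no base at the promoters of members with no peak. Bases at 0.05 or above are left out of these lists, so weaker cutting cannot be seen there. For all 8 members with no promoter peak, no base within 1 kb of the 5' end was listed at a false discovery rate under 0.05 in any library. They were Rab3c, Rab7b, Rab9b, Rab18, Rab25, Rab27b, Rab33a and Rab37. At 41 members such a base was listed in all 4 libraries.

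For 3 of these 8 genes the annotated 5' end was closed but another transcript start was open. Rab37, known from secretory granules of mast cells, had 6.93, 7.17, 13.1 and 6.21 in replicates 1 to 4 at chr11:115153721-115154220 (mean 8.34 ± 3.17, SD, n = 4), which overlaps a transcript start 62772 bases from the gene's 5' end. Rab18, a GTPase of the ER and lipid droplets, had 6.72, 8.19, 10.5 and 7.94 at chr18:6765001-6765280 (mean 8.35 ± 1.60, SD, n = 4), which overlaps a start 31315 bases into the gene. Rab27b, of granule docking, had 1.03, 1.49, 1.60 and 1.01 at chr18:70053181-70053560 (mean 1.28 ± 0.307, SD, n = 4), close to a start 88017 bases into the gene.

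Each of these internal starts was open in every library, and the Rab37 and Rab18 signals exceeded that of most members. Counted at any transcript start, 45 members (77.6%) had a recurrent promoter region, against 54.7% of all genes. Rab3c, Rab7b, Rab9b and Rab33a had no promoter peak at any transcript start in any library, and Rab25 had a mean of 0.208 without recurrence.

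Members of the same number were ordered alike in the 4 libraries in most pairs. The family has 13 numbers borne by more than 1 member, covering 29 members and 20 pairs. In 17 of the 20 pairs a member was higher in all 4 libraries, and the exceptions were the 3 Rab5 pairs. Many of the 17 set a recurrent promoter against a member with no peak or a peak in a single library. The share over pairs of unrelated genes was not computed, so the count is not shown to be a trait of the family. An exact sign-flip permutation test over 4 libraries can give no two-sided p below 1 in 8, so no pair could pass 0.05.

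Rab1a exceeded Rab1b 1.71-fold, Rab11b exceeded Rab11a 1.91-fold, Rab2b exceeded Rab2a 3.06-fold and Rab8a exceeded Rab8b 2.51-fold, as ratios of mean signals. The differences in signal within libraries were 7.84 ± 2.94 for Rab1a minus Rab1b, 8.44 ± 2.53 for Rab11b minus Rab11a, 9.87 ± 2.00 for Rab2b minus Rab2a and 11.3 ± 3.59 for Rab8a minus Rab8b (SD, n = 4 each). Each of these differences exceeded its own SD. Both members of these pairs were open.

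In 7 of the 13 numbers some members were recurrent and others were not. Rab3a had 6.64, 10.7, 14.01 and 7.68 in replicates 1 to 4 and Rab3d had 3.74, 4.78, 6.46 and 4.95, against no peak in any library at Rab3c. Rab33b had 5.42, 9.22, 9.74 and 9.08, against no peak at Rab33a. Rab7 had a mean of 8.47, against no peak at Rab7b, and Rab9 had 3.26, 4.09, 5.79 and 3.00, against no peak at Rab9b. Rab3b was recurrent too, but weak, with 0.693, 0.534, 0.523 and 0.471. These relatives were named as a recurrent member beside a member with no promoter peak, so their separation follows from the choice.

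The remaining 3 mixed numbers had a weak peak in replicate 3 at the member that was not recurrent. In that library Rab4b had 20.5, against 0.374 at Rab4a. Rab40c had 20.3, against 0.357 at Rab40b, and Rab6a had 8.39, against 0.357 at Rab6b, with 4.25, 5.92 and 3.44 at Rab6a in replicates 1, 2 and 4. In the other libraries Rab4a, Rab40b and Rab6b had no promoter peak. For Rab1, Rab2, Rab5, Rab8, Rab11 and Rab39 every member was recurrent, and no number lacked a recurrent member.

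CpG content separated recurrent from other members only in part. A 5' end was called CpG-rich when the 1000 bp around it had an observed over expected CpG ratio of at least 0.6 and a GC content of at least 50%. This held for 36 of 58 members (62.1%), against 44.8% of all genes. Of the CpG-rich members, 31 of 36 were recurrent, against 83.4% of all CpG-rich genes. Of the other members, 11 of 22 were recurrent, against 23.5% of all such genes.

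The CpG-rich members without a recurrent region were Rab4a (ratio 0.627), Rab6b (0.755), Rab15 (0.730), Rab34 (0.693) and Rab40b (0.686). Rab34 had a peak in 2 libraries and the rest in a single library. Rab5b (0.576), Rab5c (0.559), Rab30 (0.597) and Rab9 (0.595) fell just below the ratio limit and were open. Rab26, with a ratio of 0.297, and Rab19, with 0.328, were weakly open. Over the 58 members, the CpG ratio and the mean promoter signal had a Spearman correlation of 0.562, given as a description since members share the libraries and the sequence bias of the enzyme.

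**Figure D3:**
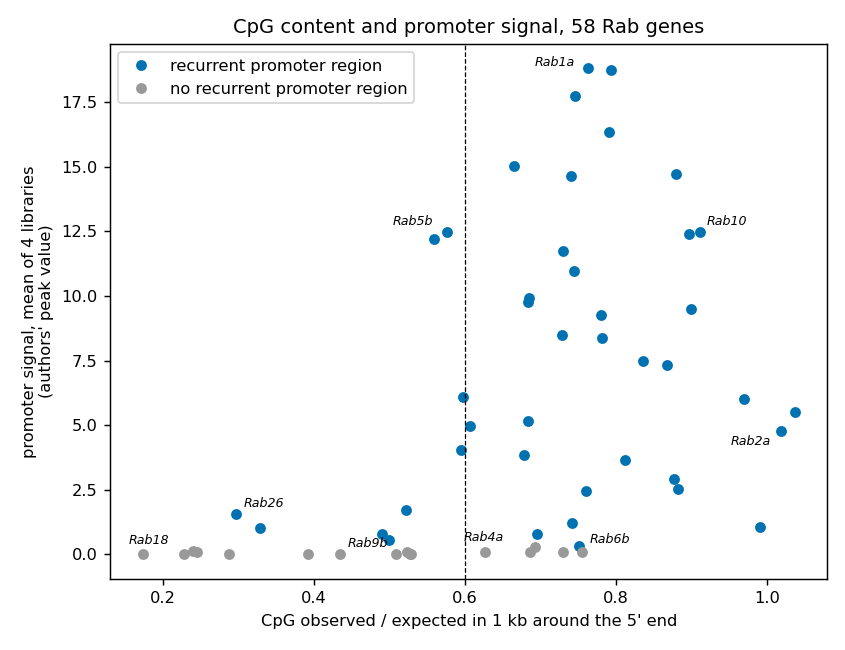
Observed over expected CpG ratio in the 1000 bp around the 5' end (horizontal axis) and mean promoter signal over 4 libraries (authors' peak value, vertical axis) of the 58 Rab genes, blue for recurrent and grey for not recurrent, with a dashed line at 0.6. Grey points lie on both sides of the line, and all members with signals above 12.5 lie to its right.

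Footprints were found at most open Rab promoters. At least 1 recurrent footprint, found in 3 or more libraries, was present at 38 members (65.5%), against 45.3% of all genes. The median number was 3 per member, against 0 over all genes. Both figures cover promoters without a recurrent region too. Such a region was present at 72.4% of members and 50.3% of all genes. In all, 471 footprint sites were called at member promoters, of which 192 were seen in 1 library, 203 in at least 3 and 141 in all 4.

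The recurrent sites were 24 bp wide in the median and lay 125 bp from the 5' end in the median, with 145 of 203 within 200 bp and 127 upstream. Rab40c had the most, 15, followed by Rab8a with 13, Rab2b with 11 and Rab14 with 10. The open promoters of Rab3b, Rab19, Rab39b and Rab42 had none, and their mean signals were 0.555, 1.03, 0.319 and 0.799. Over the 58 members the number of recurrent footprints and the mean signal had a Spearman correlation of 0.915, both being drawn from the same cuts.

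At equal signal the layout of footprints differed. Rab5a had 4 recurrent sites, Rab5c had 3 and Rab5b had 7, although their mean signals were 12.4, 12.2 and 12.5. The Rab5a sites lay from -148 to 40 relative to the 5' end, as distances of their centres. Rab1a, whose region ends before the annotated 5' end, had all 8 of its recurrent sites upstream, from -415 to -60. Rab33b and Rab9 had most of theirs downstream.

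**Figure D4:**
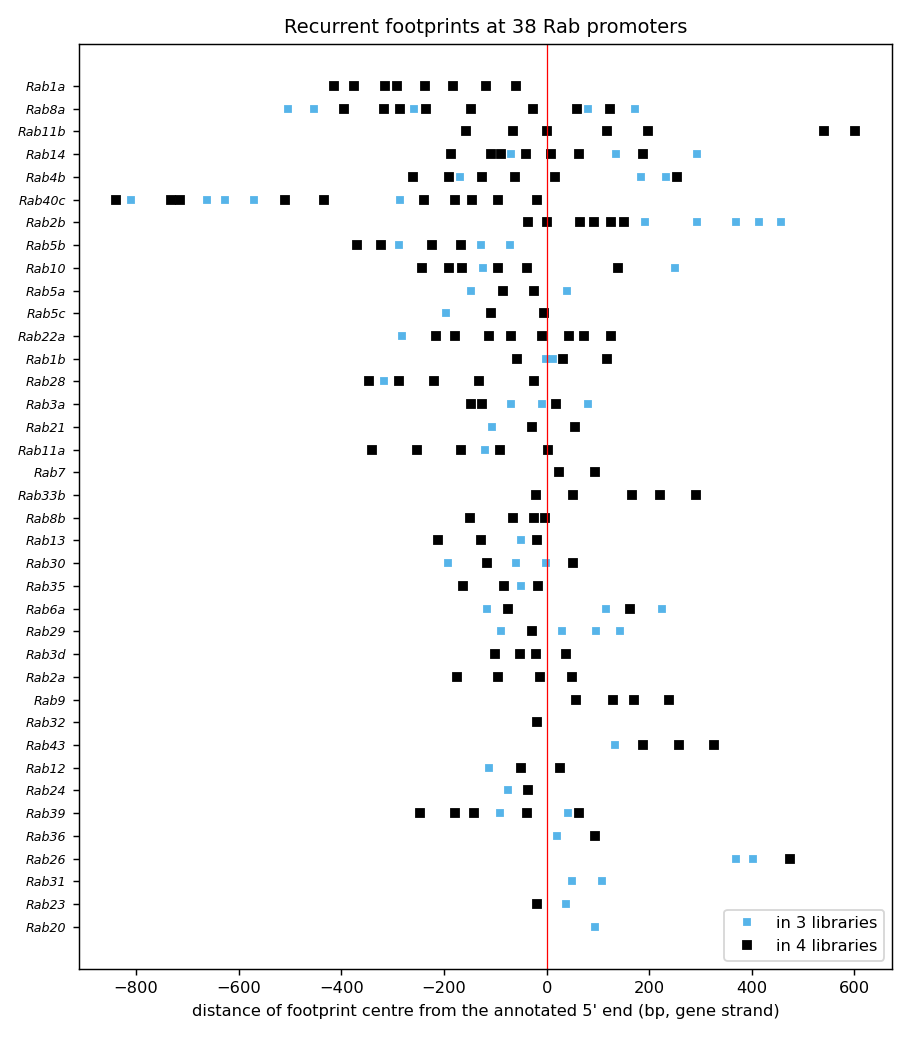
Distance of the centre of each recurrent footprint from the annotated 5' end (bp along the gene strand, horizontal axis) at the 38 Rab promoters that have one, ordered by promoter signal, with black squares for footprints in 4 libraries and blue ones for 3. Of the 203 sites, 145 lie within 200 bp of the 5' end, and Rab40c has the most, 15.

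A set of 10 fixed letter strings were searched on both strands in the 300 bases from 250 before to 50 after the 5' end. A match was called footprinted when at least 80% of it lay in a recurrent footprint. The SP/KLF string GGGGCGG stood in 25 members (43.1%), against 28.7% of all genes, and in 23 of the 42 recurrent members (54.8%), against 42.9% of recurrent genes. Of its 34 matches in recurrent members 25 were footprinted, against 53.6% of matches in recurrent genes. These shares were higher in members than in all genes, with no test.

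The ETS string CCGGAAG stood in 6 members (10.3%), against 10.9% of all genes, and all 6 were recurrent (14.3% of recurrent members, against 19.02% of recurrent genes). Of its 10 matches 6 were footprinted, against 48.9% in recurrent genes. The NRF1 string GCGCATGC stood in 2 members, Rab1a and Rab23 (3.45%), against 3.40% of all genes, and in 4.76% of recurrent members, against 5.73% of recurrent genes. The shares of both strings were near those of all genes and somewhat below those of recurrent genes.

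The palindromic E-box TCACGTGA, bound by basic helix-loop-helix factors of the MiT/TFE and USF families among others, stood in 3 members, Rab5a, Rab21 and Rab24 (5.17%), against 1.11% of all genes and 1.93% of genes with a recurrent promoter region. All 3 matches lay in a recurrent footprint, against 68.0% of 225 matches in recurrent genes, and at each of the 3 that footprint was found in all 4 libraries. These are early endosome genes and an autophagy gene, and a share over 3 members is a description of those genes. The sites are shown in 30 bases each, with capitals marking the string.
Rab5a E-box site (chr17:53479127-53479156, plus strand): acccggggatgTCACGTGActtcggccccg
Rab21 E-box site (chr10:115315604-115315633, minus strand): gcccaccgcggTCACGTGAcgaggggtgtg
Rab24 E-box site (chr13:55321961-55321990, minus strand): cggcgcccgcgTCACGTGAccgggcgtccc

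The strings began at -96, -28 and -33 relative to the 5' ends of Rab5a, Rab21 and Rab24. At Rab5a the footprint of 35 bases around the E-box also held the SP/KLF string, at -80. A second footprint of all 4 libraries, 34 bases wide, held the cAMP response element TGACGTCA at -28. The 120 bases given above for Rab5a show both footprints in capitals. The footprint at Rab21 was 48 bases wide and that at Rab24 38 bases. The promoter signal was 9.50 ± 3.41 at Rab21 and 2.55 ± 0.715 at Rab24, against 12.4 ± 3.05 at Rab5a (SD, n = 4 each).

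The NRF1 string of Rab1a, the strongest promoter of the family, lay in a footprint of all 4 libraries at -185. Rab23 had the string at -22, in a footprint of all 4 libraries, and again at -4, outside any recurrent footprint. The footprinted sites are shown with the string in capitals.
Rab1a NRF1 site (chr11:20201236-20201265, plus strand): agctcgaaagtGCGCATGCgttcagggcgc
Rab23 NRF1 site (chr1:33719854-33719883, plus strand): gccggtgctgaGCATGCGCagaccaggtgg

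The YY1 string AAGATGG stood in 8 members (13.8%), against 6.24% of all genes and 7.22% of recurrent genes, with 0 of 8 matches in recurrent members footprinted, against 18.6% in recurrent genes. The NFY string CCAATCA stood in 7 members (12.1%), against 8.83% of all genes, with 3 of 7 matches footprinted, against 24.9% in recurrent genes, at Rab2b, Rab4b and Rab11a. The cAMP response element stood in 2 members, Rab5a and Rab25, and only the Rab5a match was footprinted, the Rab25 promoter having no peak.

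The RUNX string TGTGGTT stood in Rab12, Rab26 and Rab28, the T-box string AGGTGTG in Rab6a, Rab23 and Rab32, and the AP-1 string TGANTCA in Rab34 and Rab39b. Their shares of members were 5.17%, 5.17% and 3.45%, against 5.11%, 6.09% and 6.88% of all genes. None of these 8 matches was footprinted, and in recurrent genes the footprinted share of matches was low too, at 11.2%, 7.87% and 5.58%. A match is a letter string, not a shown site of binding.

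Distal accessible regions were counted in the locus of each member, its body with flanks of 25 kb. Stretches within 1 kb of the 5' end of any protein-coding gene were left out. Other transcript starts were not, so the regions at the internal starts of Rab18, Rab27b and Rab37 count here. At least 1 distal recurrent region was present in 44 member loci (75.9%), against 59.2% of all genes. The median number per locus was 1 for members and 1 for all genes, and the mean 1.71 and 1.65. Member loci were 73.0 kb long in the median, and those of all genes 67.4 kb.

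The 99 distal regions lay in the gene body in 26 cases and in the flanks in 73, and 42 overlapped the body of another protein-coding gene. All 4 libraries had a peak at 75 of them, and 76 held a recurrent footprint. Their median mean signal was 1.48, against 1.12 over all 23620 distal recurrent regions. The number of distal regions and the promoter signal had a Spearman correlation of -0.05 over the 58 members. Leaving out stretches within 1 kb of any transcript start gave 75 distal regions in place of 99.

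**Figure D5:**
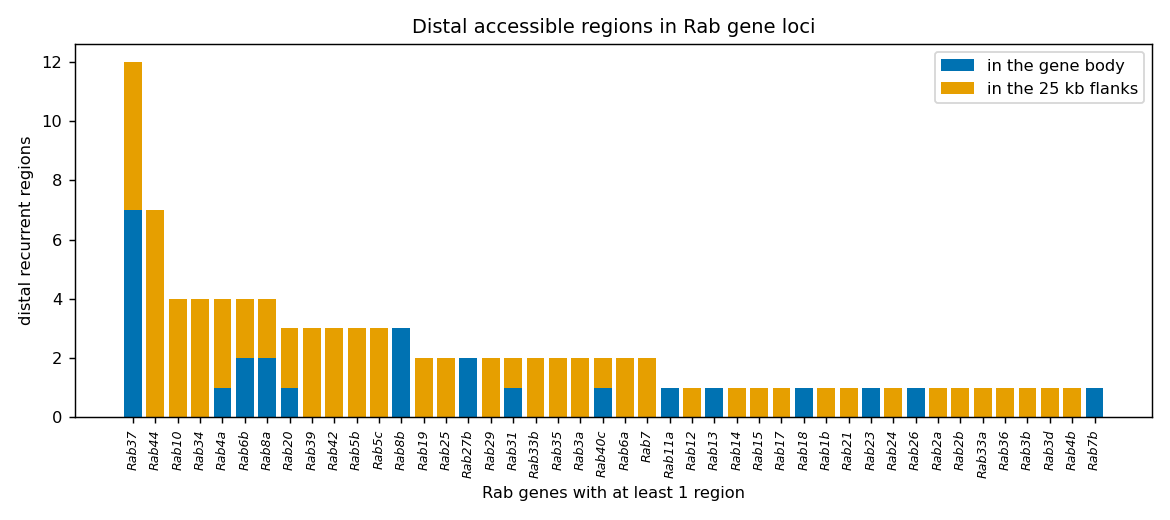
Number of distal recurrent regions (vertical axis) in the loci of the 44 Rab genes that have at least 1, in blue within the gene body and in orange within the 25 kb flanks. Rab37 has 12 and Rab44 has 7, and no other member has more than 4.

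Rab37 had the most distal regions, 12, a number reached by 0.611% of all genes. Its locus was 121 kb long, against a median of 67.4 kb over all genes, and the number was not scaled to length. Of the 12 regions, 7 lay in the gene body, and the strongest was the region over its internal start given above, with 6 recurrent footprints. A further body region reached to within 1 kb of that start, and another also overlapped Cd300lf. The Rab37 region at chr11:115173621-115173880, in the body of the neighbouring Slc9a3r1, had 3.30, 4.28, 13.02 and 8.49 in replicates 1 to 4 (mean 7.27 ± 4.44, SD, n = 4). The upstream region at chr11:115077481-115077780 had 2.80, 3.21, 7.82 and 3.59 (mean 4.35 ± 2.33, SD, n = 4). The locus was thus open in many places in every library, with the highest values of these regions in replicate 3.

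Rab44 had 7 distal regions, none of them in its own body. Of these, 3 lay in Cdkn1a, the gene of a cell cycle inhibitor, and 4 in Cpne5. The strongest, chr17:29095441-29095700 in Cdkn1a, had 9.03, 11.5, 14.7 and 11.0 in replicates 1 to 4 (mean 11.6 ± 2.37, SD, n = 4). Which gene such a region serves cannot be told from these files.

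Rab4a, Rab6b, Rab8a, Rab10 and Rab34 had 4 distal regions each, a number reached or passed by 15.1% of all genes. Rab8a had 2 in its introns, the stronger at chr8:72169281-72169580 with 2.62, 2.84, 9.70 and 4.997 in replicates 1 to 4 (mean 5.04 ± 3.29, SD, n = 4). At Rab10 all 4 lay downstream of the gene and overlapped no other protein-coding gene. The strongest of these, chr12:3235641-3235900, had 6.499, 9.12, 12.4 and 9.61 (mean 9.42 ± 2.43, SD, n = 4). It lay 74198 bases from the Rab10 5' end, and its signal was below that of the Rab10 promoter in all 4 libraries. At Rab4a, Rab6b and Rab34 the promoters were not recurrent, and the distal regions of these loci largely overlapped other genes. All those of Rab4a overlapped Gm20388, and all those of Rab34 lay in Tlcd1, Proca1 or Supt6. At Rab6b some lay in the gene body, and the others in Slco2a1 or in Gm20425 and Trf.

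Other members without a promoter peak also had open regions in their loci. Rab25 had 2 regions downstream, the stronger at chr3:88521801-88522340 with 2.96, 3.74, 7.59 and 3.61 in replicates 1 to 4 (mean 4.48 ± 2.10, SD, n = 4). Rab33a had a region downstream at chrX:48532301-48532520 with 0.658, 1.13, 1.23 and 0 (mean 0.754 ± 0.561, SD, n = 4). Rab7b had a region in a UTR at chr1:131712521-131712720 with 0.999, 0.705, 0.606 and 0 (mean 0.578 ± 0.420, SD, n = 4). The Rab25 region was open in all 4 libraries and the others were missing in replicate 4, the library with the fewest peaks. Rab3c and Rab9b had neither a promoter peak nor a distal recurrent region.

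The strongest distal regions of the family lay in neighbouring genes. The region chr14:52244441-52244660 in the Rab2b locus had 17.7, 18.7, 23.5 and 12.7 in replicates 1 to 4 (mean 18.1 ± 4.41, SD, n = 4) and lay in Chd8, a chromatin remodeller gene. The region chr5:115652981-115653300 in the Rab35 locus had 12.2, 13.7, 17.8 and 10.9 (mean 13.7 ± 3.00, SD, n = 4) and lay in Bicdl1, the gene of a dynein adaptor. Both exceeded the promoter signal of most members, and the Cdkn1a region of the Rab44 locus followed them.

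Most genes that act on Rab proteins were open too. Of 74 listed regulators and effectors, 61 (82.4%) had a recurrent promoter region, against 50.3% of all genes, and 7 had no promoter peak. Their median signal was 4.10. All 7 genes for GDP dissociation inhibitors, Rab escort proteins, prenylation and a related chaperone were open, led by Rabif with 15.2 ± 4.78 (SD, n = 4). Of the exchange factors 23 of 27 were open, with the highest mean at Rab3gap2, a subunit of the Rab18 exchange factor (18.9 ± 4.81, SD, n = 4).

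Of the GTPase-activating proteins 13 of 16 were open, led by Tbc1d17 (15.8 ± 3.21, SD, n = 4), and of the effectors 18 of 24, led by the Rab11-binding Rab11fip5 (10.5 ± 3.30, SD, n = 4). The exchange factor Dennd5b and the effector Rph3al had a promoter peak in 3 libraries each, but not joined in a single region, and were not counted as open. The regulators with no promoter peak were Dennd6a, Rab3il1, Evi5, Tbc1d14, Exph5, Rab11fip4 and Sytl4. The last of these encodes a granule effector, and its relatives Sytl3 (7.68 ± 4.24) and Sytl2 (1.75 ± 0.249) were open in all 4 libraries, whereas Sytl1 had 0, 0.795, 0.764 and 0 and was not recurrent. The list was drawn up by name, with earlier results of these data known.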

How the data were processed

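For each of 4 DNase-seq libraries, peaks, footprints and a false discovery rate (FDR) along the genome were deposited. The authors made these files library by library from filtered alignments to mm10, per the deposited readmes. Aligner, callers and settings are named in none of the sources used here. The deposited peak signal is the authors' value per peak. The deposited FDR values are p-value like measures listed below 0.05, and the authors' footprints carry the constant 0.01 in their p-value column. The longer of each library's 2 peak lists was used.

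Genes came from GENCODE M21 on GRCm38, the assembly of mm10. A gene name of the family's pattern was left out by the rule and is not analysed here, and a marker of the cell type lists is not reported here. Peaks that touched or overlapped between libraries were merged, as were footprints that overlapped by 1 bp or more. Members, lists and motifs were chosen with earlier results of these data known. Values per library are given for the 10 members with the highest mean signal, those with a region in 2 or 3 libraries, those with no promoter peak but a recurrent region in the locus, the 5 with the most distal regions, the 3 strongest distal regions and relatives of which only some were open. Others were named after their values were seen. Values were computed with Python 3.11.15, numpy 2.4.6, scipy 1.17.1, pysam 0.24.0 and bedtools 2.31.1, and the interval counting was tested on simulated data. There was no comparison of groups. Alternatives were the shorter peak list, other windows, any transcript start, equal peak numbers, other recurrence rules and leaving out each library. Sequences are those of GRCm38.p6 for the 47 members also found in the RefSeq promoter table.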

Additional observations from a re-analysis of the deposited data

Results flagged for a closer look

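Of the 50 Rab genes with a promoter peak, 12 had a library that stood apart from the other 3, by the gap to its nearest neighbour relative to the range of the 4 values. For the 7 members with a peak in 1 library alone the gap is the whole range, so they stand apart by construction. Among the other 43 members 5 stood apart. The limit used is one that about 5% of independent groups of 4 pass by chance. These members share the same 4 libraries, so the count cannot be set against that share. Replicate 3 stood high at Rab5b with 16.4, at Rab11a with 12.8 and at Rab20 with 1.10. Replicate 1 stood low at Rab33b with 5.42 and at Rab35 with 4.03. In the other cases a single library had a peak at all, which was replicate 3 for Rab44 (0.540), Rab15 (0.390), Rab4a (0.374), Rab17, Rab6b and Rab40b (0.357 each) and replicate 4 for Rab38 (0.336). Replicate 3 also had the most peaks, 69168, and replicate 4 the fewest, 36285. What sets these libraries apart was not tested.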

How the results depend on the processing

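The number of Rab genes with a recurrent promoter region was 42 and lay between 40 and 50 under every alternative run. It was 42 to 43 without each library in turn, where 2 of 3 libraries sufficed, a looser rule than 3 of 4. The number with a recurrent footprint was 38 and lay between 35 and 40, from 39 to 40 without a library under the same looser rule. The median promoter signal was 3.74 and lay between 3.43 and 4.41, both bounds included. The number of members with no promoter peak moved more. It was 8, and became 16 with the shorter peak list, 15 with the same number of strongest peaks (36247) from each library and 4 at any transcript start. Without a library it ranged from 8 to 14, with 14 when replicate 3 was left out. Distal regions numbered 99, against 26 in the gene body alone, 156 with flanks of 50 kb and 75 away from any transcript start. They numbered 74 to 85 with stricter peak or recurrence rules, and 104 to 130 without a library, where 2 of 3 libraries sufficed. The number of related pairs with a member higher in all 4 libraries was 16 or 17, and of the regulators 58 to 68 were recurrent. The alternatives for pairs and regulators were chosen after seeing the data. Of single members, Rab3b and Rab20 moved by over 1 SD with the shorter list (to 0.438 and 0.274), and Rab18, Rab25, Rab27b and Rab37 at any transcript start. Read depth is not given in the files, so a missing peak means only that none was called.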
